A study of Mus musculus with 8 samples.

Results

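The aminoacyl tRNA synthetases, the enzymes that load each tRNA with its amino acid, were followed in alveolar macrophages of mice by bulk RNA sequencing. The members were 36 listed genes out of 37310 gene IDs in the count table, 20 of them coding for cytosolic and 16 for mitochondrial enzymes. Of these, 34 were found by their symbol in the table. For the methionine enzymes Mars and Mars2 the symbol cell held a spreadsheet date, and their rows were found by Ensembl ID (ENSMUSG00000040354 and ENSMUSG00000046994). All 36 passed the filter on low counts, which left 14537 genes tested.

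Alveolar macrophages live in the air spaces of the lung, and the study compared 4 groups of them with 2 libraries each. The texAM libraries came from alveolar macrophages of C57BL/6 mice (CD45.2+) that had been expanded in culture, given into the airways of CD45.1 mice (C57Bl/6-Ly5.1) and recovered after 4 months in the lung. The exAM libraries came from C57BL/6 alveolar macrophages expanded in culture for 2 months and not sorted. The tAM libraries came from transferred C57BL/6 cells without that culture, also recovered after 4 months in vivo. The HostAM libraries came from the resident CD45.1+ cells of the Ly5.1 strain, and whether those mice had received cells or PBS was not given in the sources used here. Donor and recipient mice were 8 weeks old at the start. The 3 lung groups (texAM, tAM and HostAM) were sorted from whole lung as live SiglecF+ CD11c+ cells with the CD45 form of their strain, so culture and the lack of a sort cannot be told apart in exAM. Each library was a pool of 3 mice or cultures, so that p-values measure the spread between 2 pools a group.

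The libraries held between 6546272 (exAM replicate 1) and 9154128 (texAM replicate 1) counts. All 16 alveolar macrophage markers were counted in every group. In exAM over tAM 9 of them were called higher, 3 lower and 4 not called (adjusted p under 0.05 in edgeR), with a median log2 fold change of 0.33. Of all tested genes 21.5% were called higher and 23.2% lower. The highest rises were those of Marco, a scavenger receptor, with 520 and 471 CPM in exAM against 217 and 245 CPM in tAM, and of Fabp4, a fatty acid binding protein, with 159 and 153 CPM in exAM against 95.4 and 93.8 CPM in tAM. The deepest falls were those of Krt79 (2.23 and 1.24 CPM in exAM against 192 and 206 CPM in tAM) and Cidec (4.97 and 4.17 CPM in exAM against 257 and 288 CPM in tAM). Siglecf, a marker of the lung sort, was also lower in exAM, with 228 and 144 CPM against 332 and 344 CPM in tAM. CPM is the count scaled to the TMM-adjusted library size and expressed per 1000000 counts. Genes with many counts per base of transcript hardly followed library size. In texAM replicate 1 over replicate 2, whose totals differed by 0.13 on the log2 scale, the median difference of raw counts was 0.14 for genes at 0.05 to 0.5 counts per base and 0.03 for genes over 1. Among the markers, Chil3 had 2135 and 2144 raw counts in exAM and 2177 and 2160 in tAM. Plet1 had 3277 and 3182 in exAM and 3278 and 3170 in tAM. Both were higher in exAM by CPM alone. So were Mrc1 (8143 and 7706 raw counts in exAM against 8596 and 8223 in tAM), Cd9 (1968 and 1953 against 2189 and 2079), Ear2 (655 and 588 against 683 and 690) and Pparg (1410 and 1519 against 1745 and 1585). Marco (3034 and 3053 against 1867 and 1954) and Fabp4 (929 and 988 against 822 and 748) were also higher in raw counts. So were Car4 (2153 and 2251 against 2035 and 2082) and Lpl (7146 and 7262 against 7057 and 6644), while Fabp5 overlapped (849 and 891 against 869 and 701). The members lay between 0.0051 and 0.803 counts per base with a median of 0.147. These values use the longest annotated transcript, by which Nars, Gars and Rars were above 0.5 and none was above 1. By all exonic bases of a gene Nars alone was above 0.5. In 13 members some exonic bases are shared with a neighbouring gene, in 12 of them on the opposite strand (422 bases in Cars2, 248 in Farsb and 89 in Ears2), and strand was not stated to be kept. In bulk samples, fewer cells of a type and less RNA per cell cannot be told apart.

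Each synthetase recognises 1 amino acid and joins it to the matching tRNA at the cost of ATP. Cytosolic enzymes feed the ribosomes that read nuclear messages, while a mostly separate, nuclear-encoded set is imported into mitochondria, where only a few proteins of the respiratory chain are made. Gars and Kars serve both compartments, Eprs loads glutamate and proline, and phenylalanine is loaded in the cytosol by an enzyme built from the products of Farsa and Farsb. Several cytosolic enzymes sit together in the multisynthetase complex. Many cytosolic synthetase genes are known targets of ATF4, the transcription factor whose translation rises when the kinase GCN2 senses uncharged tRNA.

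Promoter sequences of the members were read from RefSeq (GRCm38.p6), as 250 bases before and 50 bases after the annotated start. They were found for 13 cytosolic and 14 mitochondrial genes. The core of the element bound by ATF4 with a C/EBP partner, TGATGNAA on either strand, was in 5 of 13 cytosolic promoters (Aars, Gars, Iars, Tars and Yars) and in 0 of 14 mitochondrial ones, and 4.51% of 27025 genes held it. The E-box CACGTG was in 4 cytosolic promoters (Aars, Farsb, Iars and Tars) and 1 mitochondrial promoter (Ears2), against 8.09% of all genes. The core of the NRF1 motif (GCGCA and GCGC around any base) was in 3 cytosolic (Farsb, Kars and Tars) and 2 mitochondrial promoters (Iars2 and Mars2), against 5.19% of all genes. These are matches of letters, not sites of measured binding, and no match to a motif overlapped a match to another. Of the matches to the ATF4 and C/EBP core, those of Gars, Iars, Yars and Tars are shown in their surroundings on the strand of the gene, in capitals. No mitochondrial promoter that was found held this core. Aars, which also held it, is not printed, and members without a promoter entry could not be compared. The matches of Iars and Yars begin after the annotated start, at bases 8 and 4. For Tars the printed stretch also has an NRF1 core in capitals, the one nearer its beginning. The positions are chr6:55037941-55038000 (Gars, plus strand), chr13:49682126-49682155 (Iars, plus), chr4:129189895-129189924 (Yars, plus) and chr15:11399666-11399908 (Tars, minus).
Gars: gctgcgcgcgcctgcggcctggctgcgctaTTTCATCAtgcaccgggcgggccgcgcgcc
Iars: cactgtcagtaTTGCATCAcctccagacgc
Yars: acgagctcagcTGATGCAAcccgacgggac
Tars: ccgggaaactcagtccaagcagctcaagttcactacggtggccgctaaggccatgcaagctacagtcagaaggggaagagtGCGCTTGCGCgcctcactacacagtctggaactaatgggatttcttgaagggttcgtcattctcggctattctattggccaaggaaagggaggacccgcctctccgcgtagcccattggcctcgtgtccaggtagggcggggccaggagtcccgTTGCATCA

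The comparison of exAM with tAM sets cultured cells beside transferred cells of the same strain that had not been expanded. Of the 20 cytosolic enzymes, 12 rose (Aars, Dars, Eprs, Farsb, Gars, Iars, Kars, Nars, Qars, Rars, Sars and Tars), 1 fell (Farsa) and 7 did not pass the test. A call means an adjusted p under 0.05 in edgeR's quasi-likelihood F test, with Benjamini-Hochberg adjustment across the whole table. By that rule 44.7% of all genes were called, 21.5% as higher and 23.2% as lower. The share of 12 in 20 is above that background, as a description without a test of the list. Their median log2 fold change was 0.59, with a range of -1.20 to 0.96, while the median of all tested genes was -0.09. The risen enzymes changed by less than 2-fold each, 1.28-fold for Gars up to 1.95-fold for Tars. Of the 16 mitochondrial enzymes, 1 rose (Iars2), 2 fell (Cars2 and Ears2) and 13 did not pass, and their median was -0.34. That median turned to 0.17 without tAM replicate 1, so the sign of the mitochondrial median rested on 1 library. Without Mars and Mars2, which the symbol column did not name, the counts were 12 higher and 1 lower of 19 cytosolic and 1 higher and 2 lower of 15 mitochondrial enzymes.

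**Figure D1:**
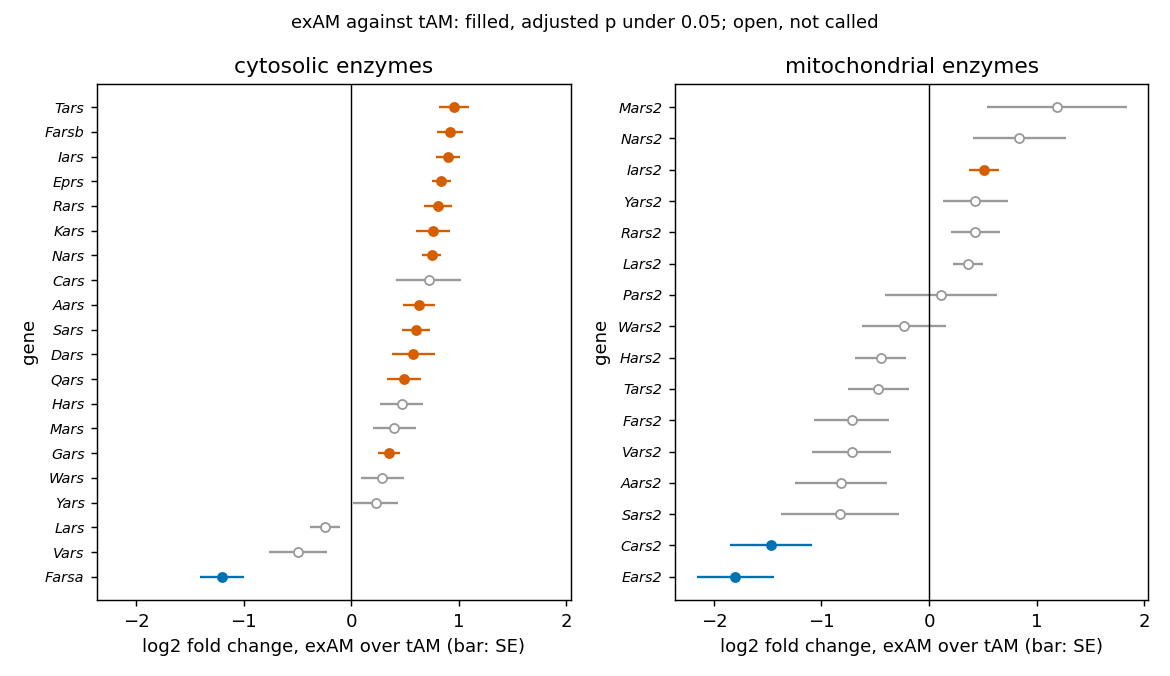
Log2 fold change of exAM over tAM for the 20 cytosolic enzymes (left) and the 16 mitochondrial enzymes (right), with 1 point per gene and a bar for the standard error. Filled points were called at an adjusted p under 0.05 and open points were not. The cytosolic genes lie mostly right of 0 with Farsa far left, and the mitochondrial genes spread to both sides with wider bars.

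Among enzymes of the multisynthetase complex, 6 of 8 rose in exAM over tAM, where 21.5% of all genes were called higher. Their median log2 fold change was 0.67. Eprs, which loads 2 amino acids (chromosome 1, 185363044-185428360), had 448 and 482 CPM in exAM against 269 and 251 CPM in tAM. Iars, the isoleucine enzyme, had 299 and 347 CPM in exAM and 160 and 185 CPM in tAM. Rars, the arginine enzyme, had 206 and 198 CPM in exAM and 109 and 122 CPM in tAM. In these 3 genes both exAM libraries lay far above all 6 lung libraries, of which the highest had 283 CPM for Eprs, 207 CPM for Iars and 129 CPM for Rars. Kars, the lysine enzyme, had 146 and 140 CPM in exAM against 74.6 and 95.2 CPM in tAM. Qars, the glutamine enzyme, had 114 and 108 CPM in exAM against 74.2 and 82.9 CPM in tAM. Dars, the aspartate enzyme, had 83.9 and 96.8 CPM in exAM against 67.7 and 53.0 CPM in tAM. The groups did not overlap in these 3 genes either, though the gap was narrower. The log2 fold changes were 0.84 for Eprs (SE 0.09, adjusted p 6.56e-05), 0.90 for Iars (SE 0.11, adjusted p 0.000132), 0.81 for Rars (SE 0.13, adjusted p 0.000528) and 0.76 for Kars (SE 0.16, adjusted p 0.00386). They were 0.49 for Qars (adjusted p 0.0271) and 0.58 for Dars (adjusted p 0.0357). The Qars call was lost without any 1 of the 4 libraries compared, at adjusted p-values of 0.150 and 0.059 without tAM replicates 1 and 2 and 0.108 and 0.0669 without exAM replicates 1 and 2. Dars lost its call without tAM replicate 2 (adjusted p 0.213), exAM replicate 1 (0.0536) or exAM replicate 2 (0.165). The other complex enzymes, Lars for leucine and Mars for methionine, had log2 fold changes of -0.24 (adjusted p 0.172) and 0.40 (adjusted p 0.134).

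Of the 12 cytosolic enzymes outside the complex, 6 rose and 1 fell in exAM over tAM, with a median log2 fold change of 0.54. The shares over all genes were 21.5% higher and 23.2% lower. Tars, the threonine enzyme (chromosome 15, 11382301-11399665), had 129 and 167 CPM in exAM against 75.4 and 76.6 CPM in tAM. Nars, the asparagine enzyme, had 372 and 401 CPM in exAM against 226 and 234 CPM in tAM. Sars, the serine enzyme, had 154 and 188 CPM in exAM against 106 and 119 CPM in tAM. All 3 were higher in both exAM libraries than in any lung library. Aars, the alanine enzyme, had 210 and 277 CPM in exAM against 149 and 167 CPM in tAM. Gars, the glycine enzyme of both compartments, had 206 and 231 CPM in exAM against 169 and 173 CPM in tAM. The gap between the groups was narrower than the spread of the exAM pair in Aars, and in Gars the groups lay close together without overlap. The log2 fold changes were 0.96 for Tars (SE 0.14, adjusted p 0.000439), 0.75 for Nars (SE 0.09, adjusted p 0.000107), 0.60 for Sars (SE 0.13, adjusted p 0.00418), 0.63 for Aars (SE 0.15, adjusted p 0.00685) and 0.35 for Gars (SE 0.10, adjusted p 0.0186). Aars lost its call without tAM replicate 1 (adjusted p 0.0551) or exAM replicate 2 (0.0595), and Gars without tAM replicate 1 (0.0975), tAM replicate 2 (0.0742) or exAM replicate 2 (0.103). Part of the exonic bases of Aars, 1326 of them, is shared with Exosc6 on the same strand, so reads there cannot be assigned with certainty. Cars, Hars, Vars, Wars and Yars, for cysteine, histidine, valine, tryptophan and tyrosine, were not called, with log2 fold changes of -0.49 (Vars) to 0.72 (Cars).

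**Figure D2:**
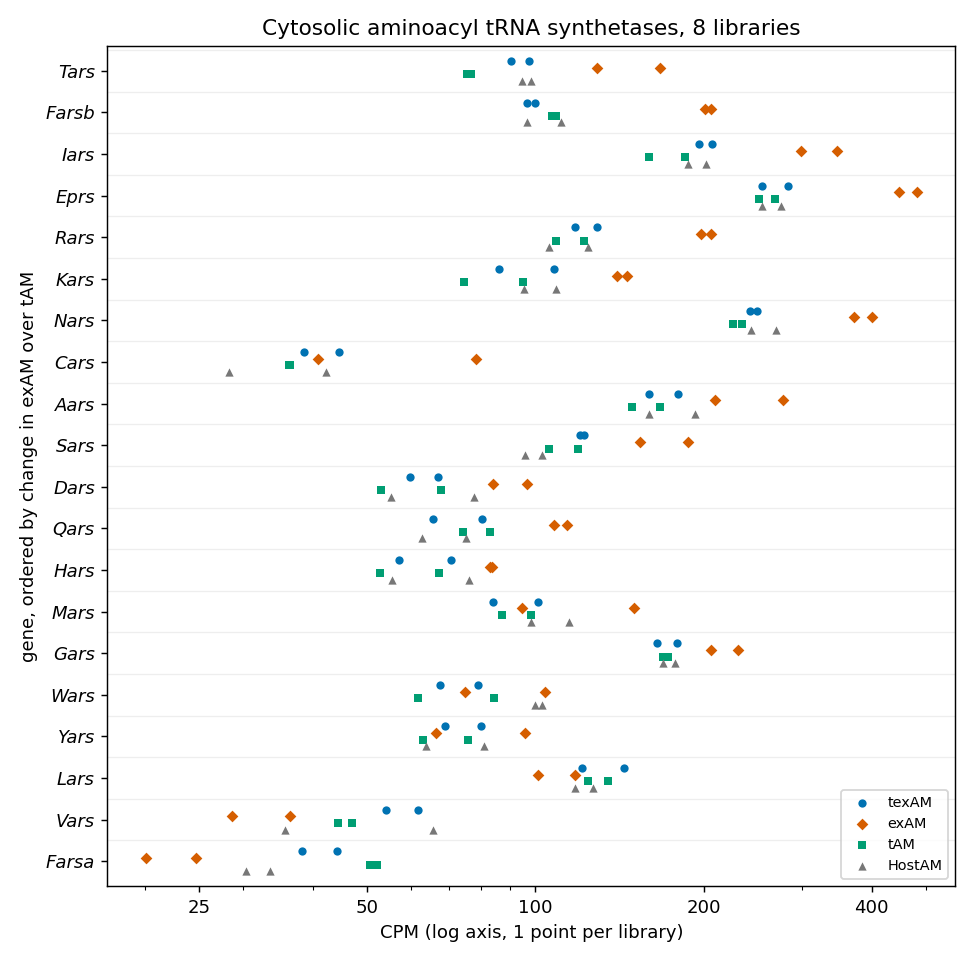
Level of the 20 cytosolic enzymes in each of the 8 libraries, in CPM on a log axis, with 1 point per library and genes ordered by their change in exAM over tAM. The exAM points stand right of all lung points in 13 genes, left of them in Farsa, and among them in 6.

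The genes of the phenylalanine enzyme moved in opposite directions. Farsb, which codes for the beta subunit (chromosome 1, 78417975-78488897), had 96.6 and 99.9 CPM in texAM, 201 and 206 CPM in exAM, 107 and 109 CPM in tAM, and 111 and 96.7 CPM in HostAM. Farsa, which codes for the catalytic alpha subunit (chromosome 8, 84856989-84869257), had 38.2 and 44.1 CPM in texAM, 24.7 and 20.1 CPM in exAM, 52.1 and 50.5 CPM in tAM, and 30.4 and 33.5 CPM in HostAM. Both exAM libraries were above every lung library for Farsb and below every one for Farsa. In exAM over tAM, Farsb rose 1.89-fold (log2 fold change 0.92, SE 0.12, adjusted p 0.000138) and Farsa fell 2.29-fold (log2 fold change -1.20, SE 0.20, adjusted p 0.000892), and neither call was lost without any 1 library. Within a library the ratio of Farsb to Farsa counts does not depend on scaling between libraries. It was 2.53 and 2.26 in texAM, 8.12 and 10.3 in exAM, 2.05 and 2.16 in tAM, and 3.64 and 2.89 in HostAM. The enzyme holds both subunits in equal number, and these ratios are of unadjusted counts, so only the change between groups can be read from them. Against HostAM the fall of Farsa did not pass the test (log2 fold change -0.51, adjusted p 0.0619), while in texAM over exAM Farsa rose (log2 fold change 0.88, adjusted p 0.00557) and Farsb fell (log2 fold change -1.05, adjusted p 6.03e-05). The Farsa call in that comparison was lost without exAM replicate 2 (adjusted p 0.06).

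**Figure D3:**
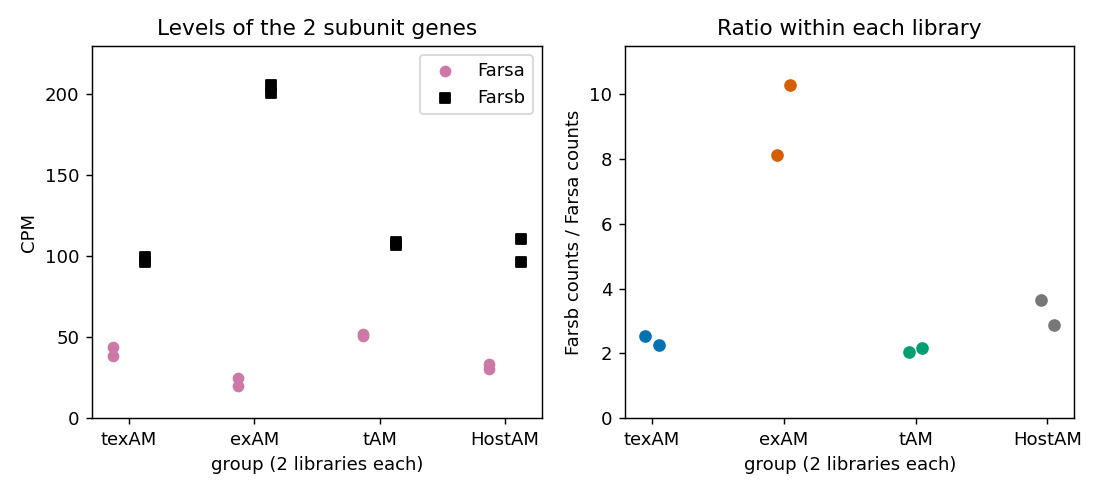
Levels of Farsa and Farsb in CPM (left) and the ratio of Farsb to Farsa counts (right) in the 4 groups, with 1 point per library. The exAM ratios of 8.12 and 10.3 stand above those of all lung libraries, which run up to 3.64.

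The mitochondrial enzymes moved in both directions, with lower counts and wider errors than the cytosolic ones. Ears2, the glutamate enzyme of mitochondria (chromosome 7, 122037213-122067263), had 15.0 and 17.0 CPM in texAM, 4.46 and 5.56 CPM in exAM, 18.8 and 16.2 CPM in tAM, and 34.7 and 19.3 CPM in HostAM. Cars2, the cysteine enzyme, had 14.7 and 23.3 CPM in texAM, 9.09 and 10.8 CPM in exAM, 34.5 and 20.6 CPM in tAM, and 27.6 and 16.9 CPM in HostAM. Both were lower in exAM than in every lung library, and for Cars2 the lung libraries themselves differed by more than 2-fold. In exAM over tAM, Ears2 fell by 1.80 on the log2 scale (SE 0.36, adjusted p 0.0026) and Cars2 by 1.47 (SE 0.38, adjusted p 0.0101). The Ears2 call stood without each library in turn, whereas Cars2 lost its call without tAM replicate 1 (adjusted p 0.0902) or exAM replicate 1 (0.0708). Iars2, for isoleucine (chromosome 1, 185284726-185329396), had 91.9 and 91.7 CPM in texAM, 135 and 115 CPM in exAM, 82.9 and 93.5 CPM in tAM, and 112 and 102 CPM in HostAM. It rose by 0.51 in exAM over tAM (SE 0.14, adjusted p 0.0124), a call lost without tAM replicate 1 (adjusted p 0.0936) or exAM replicate 1 (0.088), and 2034 of its exonic bases overlap Rab3gap2 on the other strand. Yars2, for tyrosine, had 16.4 and 12.0 CPM in texAM, 22.3 and 31.5 CPM in exAM, 21.8 and 18.2 CPM in tAM, and 11.9 and 9.67 CPM in HostAM. Hars2, for histidine, had 26.4 and 33.8 CPM in texAM, 17.8 and 18.4 CPM in exAM, 24.7 and 24.8 CPM in tAM, and 17.7 and 20.0 CPM in HostAM. Neither was called in exAM over tAM. The highest fold change of the compartment belonged to Mars2, for methionine, with 9.29 and 4.79 CPM in texAM, 12.2 and 9.88 CPM in exAM, 3.02 and 6.65 CPM in tAM, and 2.76 and 10.5 CPM in HostAM. Its log2 fold change of 1.19 had an SE of 0.65 and was not called (adjusted p 0.162), and the exAM values overlapped those of HostAM. Lars2, the leucine enzyme, had 82.8 and 81.2 CPM in exAM against 61.5 and 66.5 CPM in tAM (adjusted p 0.0565). The rRNA-like row Gm15564, read as a mark of leftover rRNA, had 2.23 and 2.47 CPM in exAM and between 1.67 and 2.13 CPM in the lung libraries. These values rest on 13 to 18 counts a library, too few to show whether leftover rRNA differed. Gm23935 had 0 counts in every library, and the other rRNA-like rows sought were not found.

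**Figure D4:**
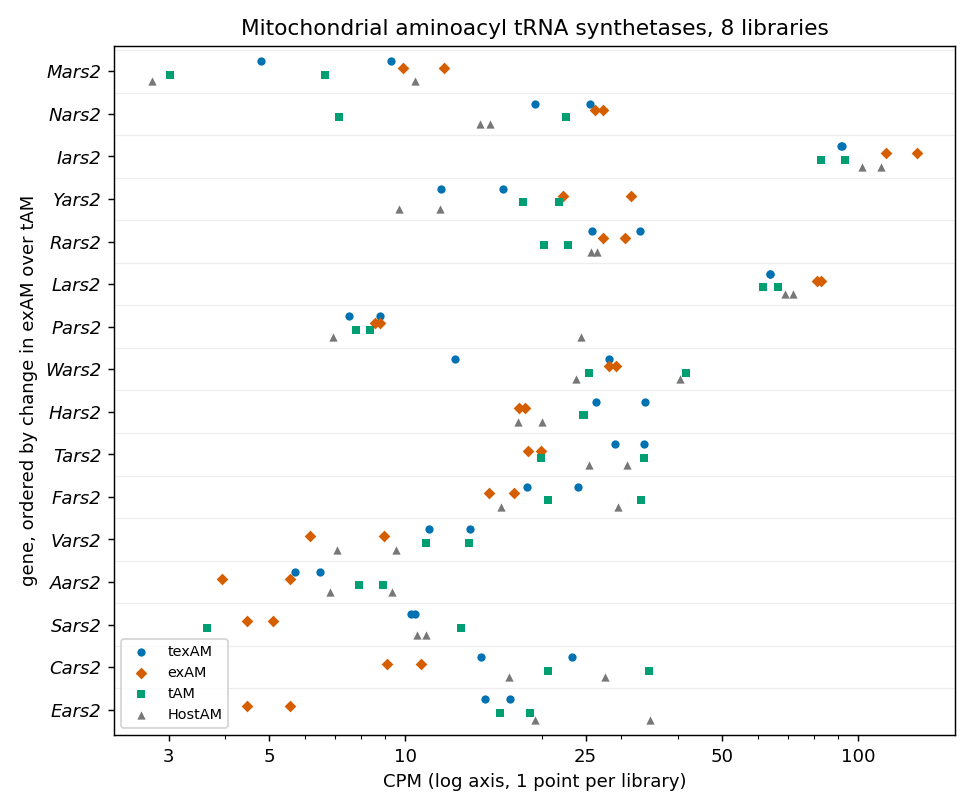
Level of the 16 mitochondrial enzymes in each of the 8 libraries, in CPM on a log axis, with 1 point per library and genes ordered by their change in exAM over tAM. The exAM points stand right of all lung points in 4 genes, left of them in 4 and among them in 8.

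Across all lung libraries, both exAM libraries were above the other 6 in 13 of 20 cytosolic and 4 of 16 mitochondrial genes, against 28.1% of all tested genes. They were below the other 6 in 1 cytosolic and 4 mitochondrial genes, against 29.7% of all tested genes. The summed level of the 20 cytosolic enzymes was 2327 and 2283 CPM in texAM, 3084 and 3530 CPM in exAM, 2135 and 2238 CPM in tAM, and 2368 and 2241 CPM in HostAM. The 16 mitochondrial enzymes summed to 394 and 414 CPM in texAM, 424 and 424 CPM in exAM, 443 and 373 CPM in tAM, and 450 and 410 CPM in HostAM. The cytosolic sum was thus higher in both exAM libraries than in any lung library, and the mitochondrial sum lay within the lung range.

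The balance between compartments was also read for each amino acid as the ratio of cytosolic to mitochondrial counts per base of exon, which needs no scaling between libraries. In 16 pairs of enzymes, 2 of which share Eprs, the exAM ratio was above all 6 lung libraries for 8 amino acids, below all of them for leucine, and among them for 7. In these 7 the mean exAM ratio over the mean tAM ratio was 0.525 (methionine), 0.677 (asparagine), 0.69 (phenylalanine), 0.855 (tyrosine), 1.17 (valine), 1.34 (isoleucine) and 1.4 (tryptophan). Phenylalanine was read as Farsa to Fars2, without Farsb, which moved the other way from Farsa. The ratio of Eprs to Ears2 was 5.35 and 4.26 in texAM, 28.6 and 24.7 in exAM, 4.08 and 4.42 in tAM, and 2.09 and 4.04 in HostAM. That of Aars to Aars2 was 12.7 and 16.2 in texAM, 27.3 and 25.6 in exAM, 8.58 and 10.8 in tAM, and 14.5 and 8.80 in HostAM. For threonine (Tars to Tars2) it was 3.94 and 3.16 in texAM, 8.14 and 9.84 in exAM, 2.63 and 4.51 in tAM, and 3.75 and 4.36 in HostAM. For cysteine (Cars to Cars2) it was 2.88 and 2.10 in texAM, 4.94 and 7.98 in exAM, 1.16 and 1.94 in tAM, and 1.68 and 1.84 in HostAM. In these 4, and likewise for histidine, arginine, serine and proline, both exAM ratios were above all 6 lung ratios. The gap was narrow for histidine, arginine and serine. Their lower exAM ratios were 7.91, 5.57 and 22.3, and their highest lung ratios 7.51, 5.2 and 21.1. For leucine (Lars to Lars2) it was 4.64 and 3.91 in texAM, 2.52 and 3.01 in exAM, 4.18 and 4.21 in tAM, and 3.54 and 3.67 in HostAM. The median ratio over the 16 pairs, taken over group means, was 4.42 in texAM, 7.26 in exAM, 4.21 in tAM and 4.17 in HostAM. These ratios are a description and were not tested, and no share over other pairs of genes was taken beside them. Of single tested genes, 28.1% had both exAM libraries above all 6 lung libraries by CPM and 29.7% had both below.

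The comparison of texAM with exAM sets expanded cells recovered after 4 months in the lung beside expanded cells in culture. How long the texAM cells were cultured before transfer was not given in the sources used here. The exAM libraries therefore need not show their starting state. Of the cytosolic enzymes 11 fell (those that had risen in exAM over tAM, without Dars), 2 rose (Farsa and Vars) and 7 did not pass, where 43.7% of all genes were called, 23.2% higher and 20.5% lower. The median log2 fold change was -0.52 for cytosolic enzymes and 0.11 for all tested genes. This comparison and that of exAM with tAM share the exAM libraries, so the same exAM values enter both with opposite sign. In texAM the levels were 283 and 254 CPM for Eprs, 207 and 196 CPM for Iars, 249 and 242 CPM for Nars, and 129 and 118 CPM for Rars. They were 97.3 and 90.5 CPM for Tars, 120 and 122 CPM for Sars, 160 and 180 CPM for Aars, and 165 and 179 CPM for Gars. For Kars they were 86.1 and 108 CPM, and for Qars 65.6 and 80.4 CPM. All of these were under both exAM libraries. The log2 fold changes ran from -1.05 for Farsb to -0.35 for Gars, with -0.79 for Eprs (SE 0.09, adjusted p 9.81e-05), -0.66 for Nars (SE 0.09, adjusted p 0.000266) and -0.71 for Rars (SE 0.12, adjusted p 0.00119). Eprs, Farsb, Iars, Nars, Rars and Tars kept their calls without each library. Without texAM replicate 1 the number of cytosolic enzymes called was 7 in place of 13, with Aars, Gars, Kars, Qars, Sars and Vars lost, and without exAM replicate 2 it was 8, with Aars, Farsa, Gars, Sars and Vars lost. Gars (adjusted p 0.054) and Sars (0.0539) were also lost without texAM replicate 2, and Kars (0.0678) and Qars (0.0522) without exAM replicate 1. Vars, the valine enzyme, had 61.6 and 54.0 CPM in texAM and 28.6 and 36.4 CPM in exAM (log2 fold change 0.83, adjusted p 0.0303), and lost its call without any 1 of these 4 libraries.

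In the mitochondrial set of 16, 2 enzymes rose (Ears2 and Hars2) and 2 fell (Iars2 and Yars2) in texAM over exAM. This is a smaller share than the 43.7% called over all genes, 23.2% as higher and 20.5% as lower. The median log2 fold change was 0.19, against 0.11 for all tested genes. Ears2 rose 3.18-fold (log2 fold change 1.67, SE 0.36, adjusted p 0.00404) and kept its call without each library. Hars2 rose by 0.73 (adjusted p 0.0316), Iars2 fell by 0.45 (adjusted p 0.022) and Yars2 fell by 0.92 (adjusted p 0.0313). Each of these 3 lost its call in at least 2 of the fits without 1 library: Hars2 without texAM replicate 2 (adjusted p 0.217), exAM replicate 1 (0.148) or exAM replicate 2 (0.123), Iars2 without texAM replicate 1 (0.0938), texAM replicate 2 (0.0957) or exAM replicate 1 (0.13), and Yars2 without texAM replicate 2 (0.187) or exAM replicate 2 (0.209).

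Cultured cells were also set against resident cells. In exAM over HostAM, 11 cytosolic enzymes rose, 0 fell and 9 did not pass, where 44.1% of all genes were called, 20.9% higher and 23.3% lower. The median log2 fold change was 0.48, against -0.08 for all tested genes. In HostAM the levels were 255 and 275 CPM for Eprs, 202 and 188 CPM for Iars, 124 and 106 CPM for Rars, and 243 and 270 CPM for Nars. They were 109 and 95.3 CPM for Kars, 75.1 and 62.6 CPM for Qars, 103 and 95.8 CPM for Sars, and 98.4 and 94.5 CPM for Tars. For Aars they were 193 and 160 CPM and for Gars 169 and 178 CPM. Each of these lay below both exAM libraries. The 11 log2 fold changes ran from 0.33 for Gars to 0.97 for Farsb (SE 0.12, adjusted p 9.79e-05). Eprs, Farsb, Iars, Nars, Qars, Rars and Sars kept their calls without each library. Without exAM replicate 2 the number called was 7, with Aars, Gars, Kars and Tars lost (Tars at an adjusted p of 0.0544). Without HostAM replicate 2 Aars (adjusted p 0.134) and Kars (0.133) were lost, without HostAM replicate 1 Gars (0.097), and without exAM replicate 1 Kars (0.114). Of the mitochondrial enzymes 1 rose (Yars2) and 2 fell (Cars2 and Ears2), with a median of -0.15 that turned to 0.08 without HostAM replicate 2. Yars2 rose 2.49-fold (log2 fold change 1.32, SE 0.31, adjusted p 0.00612; 0.0612 without exAM replicate 2). Ears2 fell by 2.43 on the log2 scale (SE 0.36, adjusted p 0.00044) and kept its call without each library. Cars2 fell by 1.16 (SE 0.38, adjusted p 0.0301) and lost its call without HostAM replicate 1 (adjusted p 0.181), exAM replicate 1 (0.149) or exAM replicate 2 (0.0874).

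All 11 enzymes raised in exAM over HostAM were among those raised over tAM and lowered in texAM over exAM, comparisons that share the exAM libraries. Ears2 was the mitochondrial gene called lower in exAM in all 3. Because exAM had the smallest libraries, the unscaled counts were looked at as well. Of the 12 cytosolic genes raised over tAM, 8 had more raw counts in both exAM libraries than in either tAM library, and in Gars the mean raw count was lower in exAM. Over HostAM this held for Eprs, Farsb and Rars, 3 of 11, and the mean raw count of Aars, Gars and Kars was lower in exAM. Farsa and Ears2 had fewer raw counts in both exAM libraries than in either tAM library, and Ears2 also than in either HostAM library. Smaller libraries give fewer raw counts for an unchanged gene too, so the direction of unscaled counts can bear on the rises but not on these falls. Farsa had 144 and 130 raw counts in exAM against 449 and 403 in tAM, and Ears2 26 and 36 against 162 and 129. The library totals were 6546272 and 7110439 in exAM and 8302130 and 7733568 in tAM. With library size alone in place of TMM, the median of all genes in exAM over tAM moved to -0.29 and the cytosolic median to 0.39, with 9 cytosolic enzymes higher and 2 lower.

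Between lung groups no member was called. Over all genes, edgeR called 0.00688% in texAM over tAM (1 gene), 0.33% in texAM over HostAM (48 genes; 0.248% higher and 0.0825% lower) and 0.0413% in tAM over HostAM (6 genes; 0.0206% higher and 0.0206% lower). In texAM over tAM, which asks whether earlier culture left a difference after 4 months in the lung, the cytosolic log2 fold changes ran from -0.32 to 0.34 with a median SE of 0.155. The mitochondrial ones ran from -0.71 to 0.59 with a median SE of 0.35. The smallest adjusted p was 0.651 for cytosolic and 0.669 for mitochondrial members, 0 members had an unadjusted p under 0.05, and DESeq2 called 0 members. In texAM over HostAM the cytosolic range was -0.47 to 0.37 and the mitochondrial range -0.94 to 0.67, with 1 cytosolic (Wars) and 2 mitochondrial members (Ears2 and Hars2) at an unadjusted p under 0.05. In tAM over HostAM the ranges were -0.47 to 0.68 and -0.95 to 0.89, with 3 cytosolic (Farsa, Tars and Wars) and 1 mitochondrial member (Yars2) at that level, and DESeq2 called 0 members in either comparison. Wars, the tryptophan enzyme, which interferon gamma is known to induce, had 79.1 and 67.4 CPM in texAM, 84.5 and 61.7 CPM in tAM, and 103 and 100 CPM in HostAM. The HostAM libraries were the highest of the 6, and the adjusted p-values did not pass. A p that misses the threshold does not show equal levels.

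The exAM libraries differed from each other in a gene-dependent way. Of the 12 cytosolic enzymes reported as ATF4 targets, 12 were higher in exAM replicate 2 than in replicate 1, with a median log2 ratio of 0.33 (range 0.11 to 0.93, with 0.5 CPM added). Of the other 8 cytosolic enzymes 3 were higher, with a median of -0.03, and of the mitochondrial enzymes 12 of 16, with a median of 0.13. In all tested genes 47.6% were higher in replicate 2 and the median was 0. Cars had 40.8 CPM in replicate 1 and 78.4 CPM in replicate 2, and Mars had 94.7 and 150 CPM. In both genes replicate 1 lay within the lung libraries and only replicate 2 stood above them. In the list of other ATF4 and stress response genes 24 of 25 were higher in replicate 2, with a median of 0.78. These are 2 libraries without a test, and what set them apart is not given in the sources used here. In exAM over tAM, 7 of the 12 reported ATF4 targets rose, with a median of 0.61, and of the other 8 cytosolic enzymes 5 rose and 1 fell, with a median of 0.54. By structural class, 3 of 9 cytosolic class I enzymes and 8 of 10 cytosolic class II enzymes without Eprs (which has a part of each) were called higher, and 1 class II enzyme lower, with medians of 0.40 and 0.61. Over both compartments, with Eprs in each class, 5 of 19 class I enzymes were higher and 2 lower, and 9 of 18 class II enzymes were higher and 1 lower. For all these sets the share over all genes was 44.7% called, 21.5% as higher and 23.2% as lower. The difference between the sets was not tested.

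**Figure D5:**
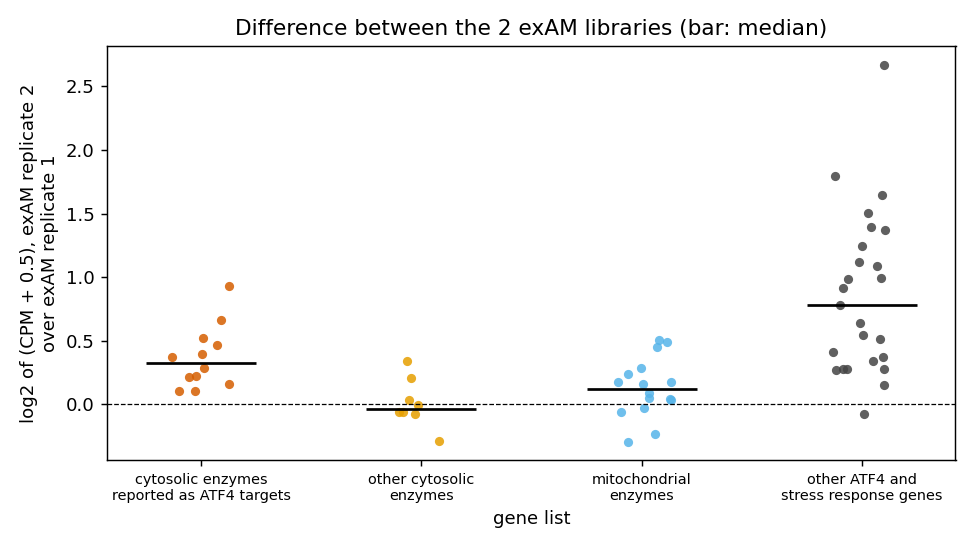
Log2 ratio of exAM replicate 2 over exAM replicate 1, from CPM plus 0.5, for 4 gene lists, with 1 point per gene and a bar at the median. The medians are 0.33 for cytosolic enzymes reported as ATF4 targets, -0.03 for other cytosolic enzymes, 0.13 for mitochondrial enzymes and 0.78 for other ATF4 and stress response genes.

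Genes around the synthetases were read in the same fit. In the list of ATF4 and stress response genes 9 of 25 tested rose and 1 fell in exAM over tAM, with a median of 1.02 against -0.09 for all genes. The 10 called are a smaller share of the list than the 44.7% called over all genes, and the 9 that rose a larger one than the 21.5% called higher. Asns, which makes asparagine, had 15.7 and 18.9 CPM in texAM, 54.9 and 157 CPM in exAM, 5.69 and 14.2 CPM in tAM, and 3.97 and 12.7 CPM in HostAM. Its log2 fold change in exAM over tAM was 3.43 (SE 0.61, adjusted p 0.00132), and the exAM libraries themselves differed by 2.87-fold. Atf3, a stress-induced transcription factor, rose by 3.29 (SE 0.26, adjusted p 6.93e-06), and Cebpg, which codes for a C/EBP partner of ATF4, fell by 0.95 (SE 0.12, adjusted p 0.000182). The mRNA of Atf4 itself had 168 and 168 CPM in texAM, 200 and 267 CPM in exAM, 154 and 178 CPM in tAM, and 161 and 157 CPM in HostAM. It was 1.41-fold higher in exAM than in tAM (log2 fold change 0.49, SE 0.14, adjusted p 0.015), and its control is known to lie largely in translation, which was not measured. In texAM over exAM 10 of 25 of the list fell and 1 rose. The share called was about the 43.7% called over all genes, and the share that fell was above the 20.5% called lower. In exAM over HostAM 12 rose and 2 fell, where 44.1% of all genes were called, 20.9% as higher and 23.3% as lower. Of the genes for GCN2, eIF2 and their partners 5 of 14 rose and 1 fell in exAM over tAM (median 0.17). The share called was about the 44.7% called over all genes, and the share that rose was above the 21.5% called higher. Impact, an inhibitor of GCN2, rose by 1.20 (adjusted p 0.00589), Eif2s1, the alpha subunit of eIF2, by 1.17 (adjusted p 0.000165), and Gcn1l1, needed to activate GCN2, fell by 0.50 (adjusted p 0.0294).

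Of 21 amino acid transporters 10 rose and 5 fell in exAM over tAM (median 0.41). Beside each list in this paragraph stands the share over all genes, 44.7% called, 21.5% as higher and 23.2% as lower. Slc7a11, the cystine importer, had 226 and 146 CPM in texAM, 380 and 482 CPM in exAM, 132 and 90.9 CPM in tAM, and 276 and 425 CPM in HostAM. It was 3.86-fold higher in exAM than in tAM (log2 fold change 1.95, SE 0.26, adjusted p 0.000214), and the HostAM and exAM libraries overlapped. Slc38a1, an importer of small neutral amino acids, fell by 2.25 (adjusted p 1.71e-05) and Slc36a1, a lysosomal exporter, by 0.94 (adjusted p 0.000529). Slc43a1, also called higher, had 18 and 6 counts in exAM and 0 in both tAM libraries, so no fold is given. Of 3 scaffold genes of the multisynthetase complex Eef1e1 rose (28.3 and 22.5 CPM in exAM, 12.0 and 7.77 CPM in tAM, log2 fold change 1.36, adjusted p 0.00603) and Aimp1 and Aimp2 were not called. Among 14 genes of other charging and editing steps, Sepsecs of the selenocysteine path rose by 0.85 (adjusted p 0.0168) and Qrsl1, of the mitochondrial glutamine path, fell by 1.09 (adjusted p 0.0435). The other 12 were not called. Of 7 cytosolic elongation genes 4 rose and 1 fell (median 0.34). Eef2k, the kinase of elongation factor 2, rose by 1.28 (adjusted p 0.00917), Eef2 by 0.41 (adjusted p 0.00377), and Eef1d fell by 0.40 (adjusted p 0.0209). Eef2, at over 1 count per base, had nearly the same raw count in every library. Eef1a1 (1066 and 1046 raw counts in exAM, 1094 and 1069 in tAM) and Eif5a (1598 and 1575 against 1703 and 1674) were higher in exAM by CPM alone. Eef2k was also higher in raw counts, with 268 and 443 in exAM against 157 and 230 in tAM. Of 13 factors of mitochondrial translation 1 rose and 3 fell (median -0.04), a smaller share called than over all genes. Gfm1, an elongation factor, was up by 0.94 (adjusted p 0.000162). Trmu, a tRNA-modifying enzyme, was down by 2.06 (adjusted p 0.00901), and Tsfm, another elongation factor, by 1.32 (adjusted p 0.0211).

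Interferon gamma genes were read because Wars belongs to that programme, and 1 of 16 tested rose and 9 fell in exAM over tAM, with a median of -0.79. Of all genes 21.5% were called higher and 23.2% lower. Cxcl9, a chemokine, and Gbp4, a GTPase of host defence, had 0 counts in both exAM libraries, against 147 and 189 counts and 68 and 44 counts in tAM. Wars itself was not called in that comparison, with 74.9 and 104 CPM in exAM and 84.5 and 61.7 CPM in tAM (log2 fold change 0.29, adjusted p 0.25). B2m, called higher, had 1579 and 1588 counts in exAM and between 1581 and 1600 counts in the lung libraries, so that its raw counts hardly differed between libraries while its CPM did.

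Markers of other cells differed between exAM and the sorted lung cells. In exAM over tAM 44.7% of all genes were called, 21.5% as higher and 23.2% as lower. Of 8 lymphocyte markers tested, 5 were lower in exAM than in tAM and 0 higher, and the 12 listed genes summed to 372 and 336 CPM in texAM, 36.4 and 66.7 CPM in exAM, 263 and 320 CPM in tAM, and 236 and 285 CPM in HostAM. The T cell genes Cd3d, Cd3e and Cd3g were at 0 in exAM, against 230 and 454 counts of Cd3e and 7 and 87 counts of Cd3g in tAM. The B cell genes Cd79b and Ms4a1 were at 0 in exAM, and no lung library held over 4 counts of either, too few to show a difference at this depth. Of 17 epithelial genes 15 were lower and 1 higher in exAM than in tAM, with sums of 952 and 822 CPM in texAM, 504 and 513 CPM in exAM, 882 and 853 CPM in tAM, and 1089 and 1157 CPM in HostAM. Most of the exAM sum was Cdh1, the gene called higher (422 and 375 CPM in exAM against 208 and 263 CPM in tAM), and Krt19 (66.2 and 122 CPM in exAM against 254 and 281 CPM in tAM). Together the remaining 15 genes summed to 528 and 307 CPM in texAM, 15.4 and 16.2 CPM in exAM, 419 and 309 CPM in tAM, and 627 and 703 CPM in HostAM. The deepest falls were those of the airway genes Bpifa1 and Cyp2f2, with 0 counts in exAM against 1279 and 802 counts and 713 and 317 counts in tAM, and the surfactant genes Sftpa1, Sftpc and Sftpd were at 0 in exAM as well. Red cell and platelet genes, 6 of 6 lower, summed to 123 and 94.1 CPM in texAM, 1.89 and 0.154 CPM in exAM, 92.2 and 86.9 CPM in tAM, and 199 and 151 CPM in HostAM. The globin genes Hbb-bs and Hbb-bt were at 0 in exAM, against 304 and 271 counts and 198 and 144 counts in tAM. Neutrophil and monocyte genes, 3 of 5 lower and 1 higher, summed to 309 and 180 CPM in texAM, 69.3 and 49.7 CPM in exAM, 128 and 129 CPM in tAM, and 172 and 180 CPM in HostAM. Csf3r had 0.343 and 1.85 CPM in exAM against 80.4 and 81.9 CPM in tAM, and S100a9 had 0.343 and 0 CPM in exAM against 8.36 and 7.02 CPM in tAM. S100a8, called higher, had 63.6 and 44.8 CPM in exAM against 17.9 and 16.9 CPM in tAM. Endothelial and stromal genes, 4 of 6 higher and 0 lower, summed to 15.7 and 15.2 CPM in texAM, 62.6 and 71.8 CPM in exAM, 6.73 and 8.65 CPM in tAM, and 11.0 and 21.6 CPM in HostAM. Pdgfra, a receptor of fibroblasts, had 114 and 269 counts in exAM and 0 in tAM, and Cdh5, the cadherin of endothelium, had 167 and 115 counts in exAM and 0 in tAM. The DESeq2 Wald test called 2 of the 6, and not Pdgfra (adjusted p 0.0621) or Cdh5 (adjusted p 0.0737). Another 5 of the 11 listed genes (Cldn5, Col1a1, Col1a2, Col3a1 and Pdgfrb) had 0 counts in both exAM libraries. Of the genes shared by leukocytes and macrophages 4 of 6 were higher and 1 lower. Adgre1 (log2 fold change 0.69) and Csf1r (0.67) had the highest rises, and Ptprc fell by 0.63. Adgre1 and Csf1r were also higher in raw counts in both exAM libraries than in tAM. Cd68 had nearly equal raw counts (2267 and 2285 in exAM, 2261 and 2243 in tAM) while its CPM was higher in exAM. The part of these cells in the synthetase differences was not tested.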

How the data were processed

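RNA of sorted or cultured alveolar macrophages was linearly amplified from a small input with a NuGEN kit (SPIA), per the labels' protocols, which do not state that strand was kept. The deposited values were whole-number counts of reads per gene, and the submitters' processing notes name Bowtie, HTSeq 0.6.1, R 3.3 and mm10 (GRCm38); whether repeated reads were removed is not given in the sources used here. Counts were analysed with edgeR 4.0.16 in R 4.3.3: filterByExpr with a minimum of 10 counts, TMM scaling, and a robust quasi-likelihood fit of all 8 libraries with 1 coefficient per group (4 residual degrees of freedom). The biological coefficient of variation was 0.22. An SE is the log2 fold change divided by the root of its F value. The scripts were tested on simulated data. DESeq2 1.42.0 and the other alternatives are described in the closing section.

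The members and lists were chosen with earlier results of these data known. Values in every library are given for cytosolic members called in both exAM against tAM and texAM against exAM, mitochondrial members called in any comparison, and the members with the highest and lowest change of each compartment. Some other values were picked after they were seen: Dars, Vars, Wars, Cars and Mars, Siglecf, and the raw counts of B2m and of alveolar macrophage markers. The same holds for the ratios for cysteine, histidine, arginine and serine, for Cd79b and Ms4a1, the surfactant genes, and Cdh1 and Krt19 within the epithelial sum. From each further list the 2 highest called changes per direction in exAM against tAM are named, with Atf4, Asns, Lars2 and the rRNA-like rows. Positions and lengths are those of GENCODE M21. A few items are not reported here.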

Additional observations from a re-analysis of the deposited data

How the results depend on the processing

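Of the 47 calls of members, 25 held under all 16 alternatives that could be run for them and 22 were lost under at least 1, and none changed sign. Replicate numbers are shared by the titles of the groups, and deviations of same-numbered libraries correlated between -0.061 and 0.009. No shared shift was thus seen, but this cannot show whether same-numbered libraries were handled together. With the replicate block 46 of the 47 calls remained and Dars in exAM over tAM had an adjusted p of 0.0521, and over all genes 0 were called in texAM over tAM and 29 in texAM over HostAM. Library size without TMM ended 14 calls. Without genes over 0.5 counts per base of all exonic bases, which took out Nars alone of the members, 44 of 44 calls that could be made remained; Gars and Rars, over 0.5 by the longest transcript, stayed in that fit. The mitochondrial enzymes called numbered 7 in texAM over exAM in a fit of the 4 libraries compared (4 in the fit of all 8), and 5 in exAM over HostAM both without a filter and in the fit of 4 libraries (3 otherwise). Over all genes, texAM over tAM gave 238 calls without a filter, 73 by the DESeq2 Wald test and 2 in the fit of 4 libraries, against 1. In texAM over HostAM there were 694 calls without a filter, 106 with a minimum of 50 counts and 385 by DESeq2, against 48, and in tAM over HostAM 425, 44 and 190 under the same settings, against 6. With 1 library left out at a time, cytosolic calls ranged from 9 to 15 (exAM over tAM), 7 to 14 (texAM over exAM) and 7 to 11 (exAM over HostAM), and mitochondrial calls from 1 to 4, 1 to 6 and 1 to 5. Calls over all genes ranged from 0 to 5 (texAM over tAM), 1 to 90 (texAM over HostAM) and 0 to 26 (tAM over HostAM). With the longest transcript as length the median ratio of cytosolic to mitochondrial enzymes was 5.12 in texAM, 6.49 in exAM and 5.55 in HostAM. In the 250 bases before the start alone, the ATF4 and C/EBP core was in 3 cytosolic promoters, the E-box in 0 mitochondrial promoters and the NRF1 core in 0 mitochondrial promoters. Where counts fell with fewer libraries, fewer samples were fitted, and otherwise the cause was not tested. The median SE in texAM over tAM was 0.35 for the mitochondrial enzymes, which had the lower counts, and 0.155 for the cytosolic ones.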
